A study of Mus musculus with 7 samples.

Results

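The Src family and focal adhesion kinases were followed here as 9 genes, picked by gene symbol from the deposited table of 47729 mouse genes: Src, Yes1, Fyn, Lyn, Frk, Csk, Ptk2, Ptk6 and Ptk7. Of these, 8 had reads and passed the filter on low values, and Ptk6 had 0 reads in all 7 libraries. The libraries were made by RNA sequencing of surface ectoderm cut by laser from frozen head sections of mouse embryos at stage E12.5, from the strip between the eye and the brain. Wild type embryos gave 3 libraries, numbered 2, 3 and 4, and embryos with a miR-205 knockout gave 4, numbered 1 to 4. Each library pooled 3 embryos, so a replicate is a pool, and the values are averages over every cell that the laser took. Strain, sex and the design of the knockout allele are not given in the sources used here, nor is any agent that both genotypes received.

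Src family kinases are tyrosine kinases of the inner face of the cell membrane. They pass signals from integrins, cadherins and growth factor receptors to the actin cytoskeleton, and each is held inactive by phosphorylation of its tail by Csk. Focal adhesion kinase, the product of Ptk2, is recruited to clustered integrins, where it binds Src and phosphorylates adaptor proteins together with it. Ptk7 is a receptor with an inactive kinase domain that acts in planar cell polarity, the orientation of cells within a sheet, and Frk and Ptk6 form a small branch of kinases found mainly in epithelia. miR-205 is a microRNA of stratified epithelia, and microRNAs lower messages that carry a match to their seed, which is bases 2 to 8.

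The sequences below show how far these messages match miR-205: the mature microRNA, from RefSeq (GRCm38.p6), with its seed in capitals, and the best match in the longest annotated 3′ UTR of the 3 kinases that match the whole seed and of Fyn, the kinase with the largest difference, from GENCODE M21 transcripts (GRCm38), written as the message strand with the matched bases in capitals.
mmu-miR-205-5p: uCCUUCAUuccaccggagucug
Frk, chr10:34608988-34609011, plus strand: ggctgttattATGAAGGAatttga
Yes1, chr5:32685447-32685469, plus strand: gctttgaataATGAAGGtaacca
Ptk6, chr2:181195664-181195686, minus strand: gtttactgagATGAAGGgatagg
Fyn, chr10:39564879-39564900, plus strand: atatgaatgcTGAAGGgttcag
Frk carried the longest match, an 8mer (ATGAAGGA), and was the only kinase of the 9 with one. Yes1 and Ptk6 each carried ATGAAGG, the match to the whole seed without the following A. Fyn and Csk had nothing longer than the 6-base core TGAAGG; that of Csk, and a second match of Ptk6, also the 6-base core, are not printed. Src, Lyn, Ptk2 and Ptk7 had no match in their longest 3′ UTR. Only the message strand was searched, and a match is a run of letters, not a measured site. Among the 13580 tested genes with an annotated 3′ UTR, 5.18% had an 8mer as their best match, 8.81% ATGAAGG without the A, and 17.1% the 6-base core alone. Of tested genes whose 3′ UTR was within 25% of the length of that of Frk (2707 bases), 7.91% had an 8mer.

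Levels were compared between kinases as normalized counts per kilobase of the longest protein-coding transcript, where a normalized count is a read count divided by the library's size factor. Ptk7 was the most abundant, with 361 ± 7.16 normalized counts per kilobase in wild type pools (SD, n = 3) and 332 ± 24.1 in knockout (SD, n = 4). Fyn came next, at 242 ± 16.9 and 316 ± 27.9, followed by Ptk2 at 215 ± 26.0 and 233 ± 10.2 and by Src at 202 ± 11.7 and 182 ± 23.2. Lower down were Csk (145 ± 14.5 and 133 ± 14.9), Frk (82.2 ± 7.71 and 98.0 ± 11.8), Yes1 (71.1 ± 10.2 and 66.9 ± 9.08) and Lyn (26.6 ± 2.82 and 25.6 ± 8.14). Averaged over all 7 libraries, Ptk7 stood above 81.0% of tested genes on this scale, Frk above 51.4% and Lyn above 24.1%. Among neighbours in this order, Src and Csk, Csk and Frk, and Yes1 and Lyn had ranges that did not overlap in either genotype. Ptk7 and Fyn overlapped in knockout but not in wild type, with Ptk7 above Fyn in 6 of 7 libraries. Fyn and Ptk2, Ptk2 and Src, and Frk and Yes1 overlapped in wild type but not in knockout, and within a library the order held in 7, 6 and 6 of the 7. Per kilobase of all annotated exons Ptk2 fell behind Src and Csk (89.4 against 171 and 101.5 over all libraries), because its annotated exons add up to 11803 bases and its longest coding transcript to 4675.

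**Figure D1:**
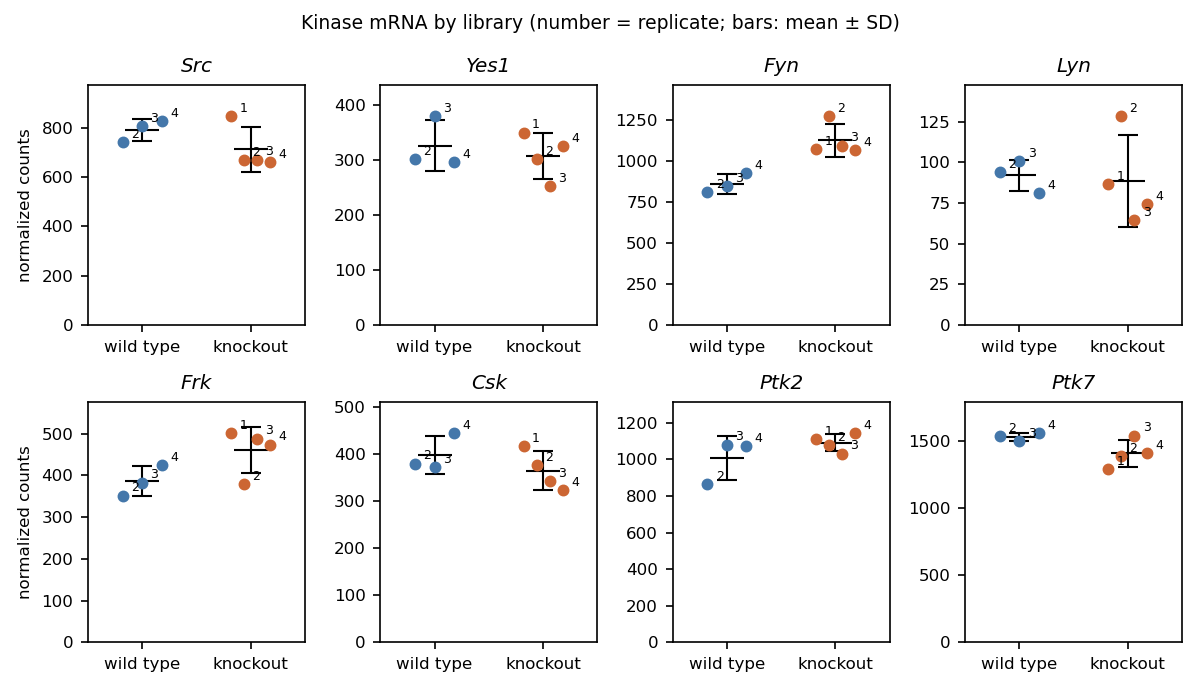
Normalized counts (y axis, from 0) of the 8 kinases with reads in each wild type (blue) and knockout (orange) library; numbers are replicates and bars are mean ± SD. Fyn is the only panel in which the 4 knockout points, from 1064 to 1273, all lie above the wild type points, from 808 to 926.

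None of the 8 tested kinases passed an adjusted p of 0.1 between knockout and wild type by limma-trend, nor did any of the 15029 genes tested (0%). Mean log2 values in knockout were higher for 3 kinases, where 51.7% of all genes were higher, and lower for 5. The median log2 difference was -0.09, against 0.01 over all genes tested. At an unadjusted p under 0.05 there was 1 kinase of 8, Fyn, against 9.77% of all genes tested (5.44% with knockout higher). Fyn was also the 1 kinase whose libraries did not overlap between genotypes, a pattern shown by 9.92% of all genes tested (4.7% with knockout higher and 5.22% with knockout lower). By the edgeR quasi-likelihood test 0 of 8 passed (0% of all genes), while DESeq2 on recovered reads called 1, Fyn (1.52% of genes with an adjusted p, and 0.748% with knockout higher).

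Fyn (ENSMUSG00000019843), the broadly expressed Src family kinase best known for its part in cell adhesion, myelination and T cell signalling, lies on chromosome 10 from 39368855 to 39565381 on the plus strand. It had 808, 848 and 926 normalized counts in wild type replicates 2, 3 and 4 and 1071, 1273, 1093 and 1064 in knockout replicates 1 to 4. Every knockout library was above every wild type library, and knockout replicate 2 stood highest. The means were 861 ± 60.1 (SD, n = 3) and 1125 ± 99.3 (SD, n = 4), a log2 difference of 0.38 (SE 0.09; 95% interval 0.17 to 0.60), which is 1.31-fold. Its limma-trend p of 0.00232 ranked 106th of 15029 genes and became 0.324 after Benjamini-Hochberg adjustment. DESeq2 gave the same size of difference (0.39) with an adjusted p of 0.0553, and the authors' deposited table lists 0.38 with an adjusted p of 0.0213, in a table where 2.83% of genes with an adjusted p passed 0.1, 1.43% with knockout higher. The call thus rested on the test, while the difference itself lay between 0.28 and 0.53 over all alternatives tried.

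Fyn is also expressed in neurons, glia, endothelium and blood cells, and markers of such cells were higher in knockout libraries. In bulk tissue, more cells of a type and more RNA per cell cannot be told apart. Each of the 12 neuronal and neural progenitor markers averaged higher in knockout on the log2 scale; their summed normalized counts were 1874 to 7960 in wild type pools and 6968 to 11463 in knockout. All 10 endothelial markers were also higher, summing to 690 to 987 in wild type pools and 905 to 2719 in knockout, as were all 10 markers of macrophages and leukocytes (428 to 1053 and 858 to 1757). Of 10 mesenchymal markers 7 were higher (19122 to 22041 and 20578 to 31605), and of 10 markers of Schwann cell and melanocyte precursors 8 were (1234 to 4455 and 3796 to 4690). All 8 skeletal muscle markers were higher (78.2 to 1965 and 146 to 10626) and all 8 erythroid markers lower (151250 to 595590 and 127790 to 320570). None of these markers was at 0 in all libraries. All 12 surface ectoderm markers had lower mean log2 values in knockout (sums of 31923 to 40658 and 22144 to 36332). Knockout replicate 2, with the highest Fyn value (1273), also had the highest sums of neuronal (11463), endothelial (2719), macrophage (1757), Schwann cell and melanocyte precursor (4690) and muscle (10626) markers of all libraries. Wild type replicate 2, with the lowest Fyn value (808), had neuronal, endothelial and macrophage sums of 7960, 987 and 1053, and knockout replicate 4, with a Fyn value of 1064, had 6968, 905 and 858. Without knockout replicates 1 and 2 the log2 difference of Fyn was 0.33, with an adjusted p of 0.716 by limma-trend; knockout replicate 3, which stays in that comparison, had a neuronal sum of 11199. The part of these cells in the Fyn difference was not tested.

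**Figure D2:**
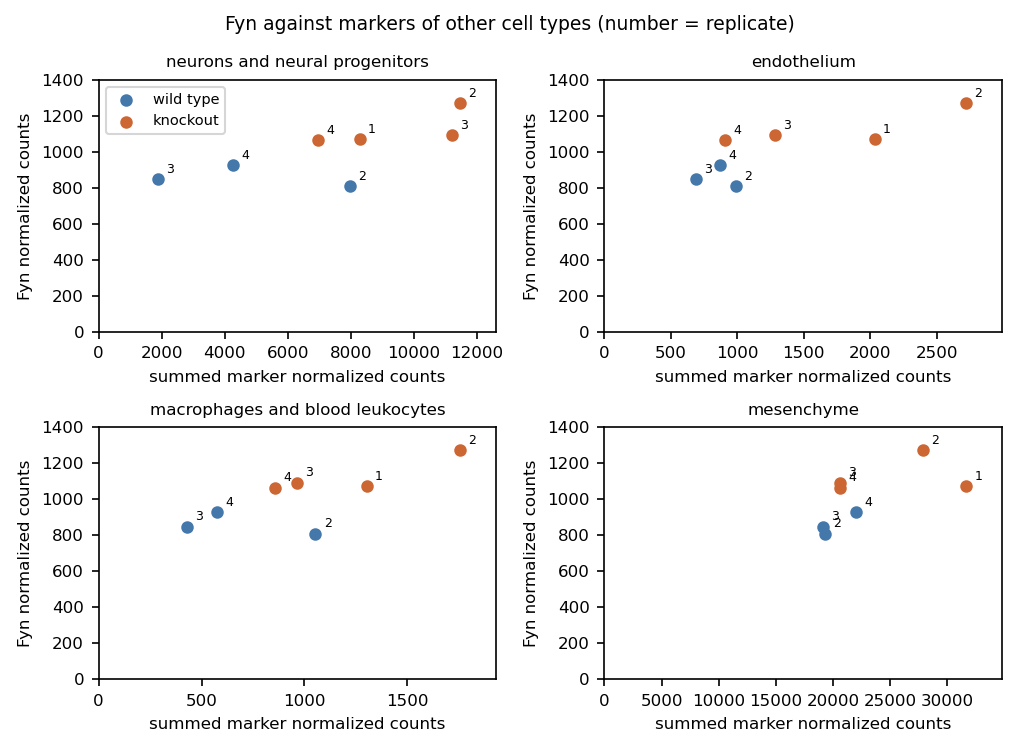
Fyn normalized counts (y axis, from 0) against the summed normalized counts of marker genes of 4 other cell types (x axes, from 0) in each library; numbers are replicates. Knockout replicate 2 has the highest Fyn value (1273) and the highest neuronal (11463), endothelial (2719) and macrophage (1757) sums; wild type replicate 2 has a neuronal sum of 7960 with a Fyn value of 808.

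Src (ENSMUSG00000027646; chromosome 2 from 157418444 to 157471862, plus strand), the founding member of the family, pointed the other way in most libraries. It had 740, 805 and 828 normalized counts in wild type replicates 2 to 4 and 847, 667, 670 and 662 in knockout replicates 1 to 4. Replicates 2, 3 and 4 of the knockout lay below all wild type libraries and replicate 1 above them, so the groups overlapped. Its log2 difference was -0.16 (SE 0.11; 95% interval -0.41 to 0.09; limma-trend adjusted p = 0.649). Without knockout replicate 1 the difference was -0.25, with an adjusted p of 0.621.

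Yes1 (ENSMUSG00000014932; chromosome 5 from 32611171 to 32687057, plus strand) is a close relative of Src with a wide expression. In wild type it had 301.5, 380.0 and 297 normalized counts, and in knockout 350, 301.2, 252 and 325. Knockout replicate 3 was the only knockout library outside the wild type range, below it, and wild type replicate 3 was the highest of all. Its log2 difference was -0.09 (SE 0.16; 95% interval -0.44 to 0.27; limma-trend adjusted p = 0.873), although the message holds the seed match shown above. Among the tested genes with ATGAAGG as their best match, the median log2 difference was 0.06, and Yes1 lay above 28.1% of them. Its exons share 635 bases with Gm10461 on the opposite strand, which was listed at 24.3 to 52.8 normalized counts. Whether counting used the strand is not stated, so it is not known how reads in the shared bases were assigned or whether they were dropped. The same holds for Lyn, whose exons share 248 bases with Gm26857 on the opposite strand, listed at 0 to 3.385 normalized counts.

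Lyn (ENSMUSG00000042228; chromosome 4 from 3678115 to 3813122, plus strand) is the family member of B cells, macrophages and mast cells, though epithelia express it too. It had 94.0, 101 and 81.4 normalized counts in wild type pools and 86.9, 129, 64.5 and 74.4 in knockout. Knockout replicate 2 was the highest and replicates 3 and 4 the lowest of all libraries, so knockout libraries spanned the wild type range on both sides. The log2 difference was -0.10 with a wide interval (SE 0.28; 95% interval -0.72 to 0.53; limma-trend adjusted p = 0.924). It had 73 to 117 recovered reads per library, the fewest of the 8, and the widest interval. Ptprc, the pan-leukocyte surface phosphatase, had 20.8, 2.58 and 5.61 normalized counts in wild type replicates 2 to 4. In knockout replicates 1 to 4 it had 37.2, 42.9, 19.4 and 0.875. Ptprc and Lyn were both highest in knockout replicate 2. In wild type replicate 3 Ptprc was low while Lyn, at 101, was the highest of the wild type pools. Whether leukocytes contributed to the Lyn values was not tested. Without knockout replicates 1 and 2 the log2 difference of Lyn was -0.40 (limma-trend adjusted p = 0.847).

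Frk (ENSMUSG00000019779; chromosome 10 from 34483399 to 34611278, plus strand), an epithelial kinase that is a tumour suppressor candidate, carries the 8mer shown above. It had 352, 383 and 424 normalized counts in wild type pools and 501, 379, 488 and 473 in knockout. Replicates 1, 3 and 4 of the knockout lay above all wild type libraries, and replicate 2 lay among them. The means were 386 ± 36.2 (SD, n = 3) and 460 ± 55.3 (SD, n = 4), a log2 difference of 0.25 (SE 0.13; 95% interval -0.05 to 0.55; limma-trend adjusted p = 0.555). Over all alternatives tried the difference lay between 0.18 and 0.34 and never passed 0.1. The 703 tested genes with an 8mer had a median log2 difference of 0.08, and Frk lay above 70.1% of them. Knockout replicate 2, the library with the lowest Frk among knockouts, was the one with the highest Fyn and Lyn.

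**Figure D3:**
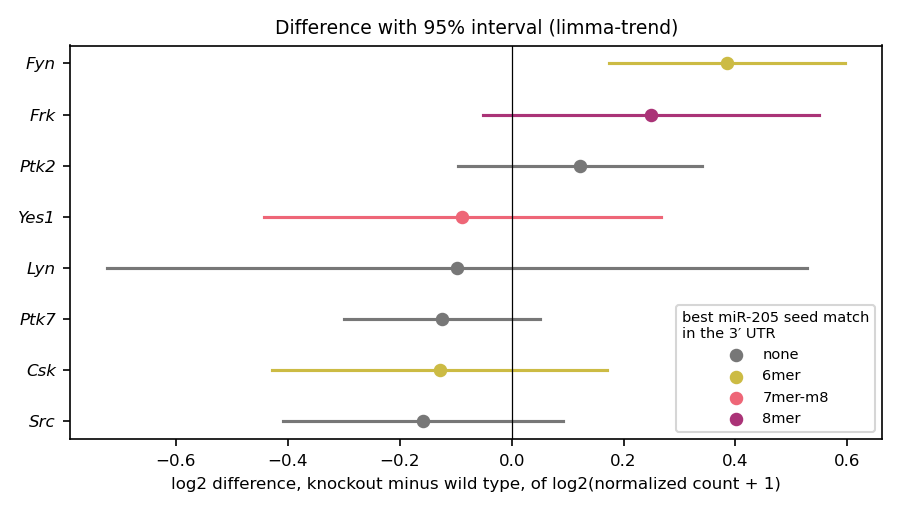
Log2 difference, knockout minus wild type (x axis), of the 8 tested kinases with its 95% interval from limma-trend; colour gives the best miR-205 seed match in the longest 3′ UTR. The interval of Fyn (0.17 to 0.60) lies above 0, and those of the other 7, Frk with its 8mer included, cross 0.

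Csk (ENSMUSG00000032312; chromosome 9 from 57626646 to 57653631, minus strand), the kinase that switches the family off, had 380, 371 and 444 normalized counts in wild type pools and 416, 377, 343 and 323 in knockout. Knockout replicates 3 and 4 were the lowest of all libraries and the others lay within the wild type range. The log2 difference was -0.13 (SE 0.13; 95% interval -0.43 to 0.17; limma-trend adjusted p = 0.763). Over the 7 libraries Csk and Src were the 2 kinases whose values varied most alike, with a Pearson r of 0.81 on the log2 scale, and both were lowest in knockout replicate 4. Lyn and Frk varied most unlike each other, at -0.71. These correlations describe libraries that share their size factors and cell makeup, and no test was made of them.

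Ptk2 (ENSMUSG00000022607; chromosome 15 from 73205102 to 73423280, minus strand), which encodes focal adhesion kinase, had 867, 1081 and 1073 normalized counts in wild type pools and 1111, 1076, 1032 and 1143 in knockout. Apart from wild type replicate 2, which was the lowest, all libraries lay within a narrow band. Its log2 difference was 0.12 (SE 0.10; 95% interval -0.10 to 0.34; limma-trend adjusted p = 0.689). Without wild type replicate 2 it was 0.02, so that replicate carried most of it (adjusted p = 0.958). The interval over all 7 libraries runs from 0.935-fold to 1.27-fold.

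Ptk7 (ENSMUSG00000023972; chromosome 17 from 46564471 to 46629504, minus strand) had 1536, 1497 and 1557 normalized counts in wild type pools and 1291, 1385, 1538 and 1407 in knockout. Replicates 1, 2 and 4 of the knockout lay below all wild type libraries, and replicate 3 lay among them. The log2 difference was -0.12 (SE 0.08; 95% interval -0.30 to 0.05; limma-trend adjusted p = 0.607). It had the smallest spread in wild type of the 8 kinases, with a coefficient of variation of 1.98%. Krt5, the keratin of basal epithelial cells, had 4279, 5646, 7537 and 5741 normalized counts in knockout replicates 1 to 4. Ptk7 had the same order among these libraries. In wild type replicates 2 to 4 Krt5 had 6627, 6668 and 8368.5, and there the order differed, with Ptk7 lowest in replicate 3. The part of the ectoderm share in the Ptk7 values was not tested. Without knockout replicates 1 and 2 the log2 difference of Ptk7 was -0.06.

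Ptk6 (ENSMUSG00000038751; chromosome 2 from 181193721 to 181202789, minus strand), a kinase of differentiating epithelia such as gut and skin, had 0 reads in each library. A count of 0 allows up to 3 reads, which is 2.58 to 3.66 normalized counts depending on the library and covers counting error only. Its seed match could therefore not be set against a level. Its relatives Srms and Fgr did not pass the filter on low values either, and Blk had 0 reads in all libraries.

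Among Src, Yes1, Fyn, Lyn and Frk, Fyn took a larger share in each knockout library than in any wild type library. Lck, a Src family kinase listed here with the related kinases, was left out of these shares. It had 263 ± 61.9 normalized counts in wild type pools and 243 ± 24.8 in knockout. Of the summed normalized counts per kilobase of Src, Yes1, Fyn, Lyn and Frk, Fyn took 38.8%, 37.3% and 40.0% in wild type replicates 2, 3 and 4 and 41.4%, 50.2%, 46.8% and 45.2% in knockout replicates 1 to 4. Src took 32.4%, 32.3% and 32.6% in wild type pools and 29.9%, 24.0%, 26.2% and 25.6% in knockout. Shares of a sum are tied, so that a higher Fyn value by itself lowers the share of Src: in knockout replicate 1 the share of Src was below the wild type shares while its normalized count, 847, was the highest of all libraries. The ratio of Fyn to Src was 1.20 ± 0.0351 in wild type pools (SD, n = 3) and 1.76 ± 0.287 in knockout (SD, n = 4), ranging from 1.16 to 1.23 and from 1.39 to 2.09. The sum itself was 624 ± 35.2 in wild type pools and 689 ± 35.2 in knockout, and its libraries did not overlap either (584 to 650 and 656 to 726). Csk was 0.232 ± 0.0188 of this sum in wild type pools and 0.193 ± 0.0128 in knockout. Fyn is part of the sum, at 242 ± 16.9 and 316 ± 27.9 per kilobase, so the sum and the Csk ratio both carry the Fyn difference. These ratios were composed after the values were seen, so no p is given for them, and messages per kilobase are not amounts of protein or of active kinase.

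**Figure D4:**
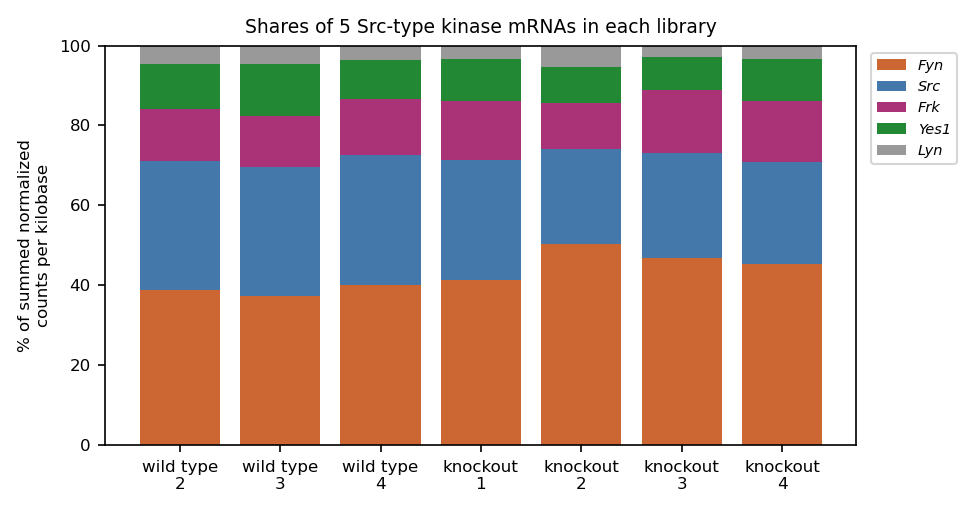
Share (y axis, % of the summed normalized counts per kilobase) of Fyn, Src, Frk, Yes1 and Lyn in each library. Fyn takes 37.3% to 40.0% in wild type pools and 41.4% to 50.2% in knockout, and Src 32.3% to 32.6% and 24.0% to 29.9%.

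For each kinase the protein-coding gene with the most similar values over the 7 libraries was looked up among genes with a mean of at least 100 normalized counts (9846 genes for most kinases). Fyn was closest to Apaf1, the scaffold of the apoptosome (Pearson r 0.99 on the log2 scale), which had 238 ± 18.5 normalized counts in wild type pools and 354 ± 32.7 in knockout. Ptk2 was closest to Tln2, a talin that links integrins to actin (0.97). Src came closest to the kinetochore gene Casc5 (0.98), Yes1 to Haus3 of the spindle complex augmin (0.99), Lyn to Msantd4 (0.99), Frk to the phosphatase gene Eya3 (0.99), Csk to the mitochondrially encoded mt-Co2 (0.97) and Ptk7 to the membrane peptidase gene Dpp4 (0.99). With 7 libraries and this many candidates a high r is reached by many genes; 44 genes had an r above 0.9 with Fyn.

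Genes that work with these kinases were described from 5 lists. The 2 genes named from each list were those with its smallest limma-trend p. That choice favours genes whose libraries do not overlap between genotypes. Without overlap were 4 higher and 1 lower of 34 tested focal adhesion partners, and 1 and 1 of 18 regulators. The counts were 0 and 1 of 7 related kinases, 1 and 0 of 15 substrates, and 0 and 3 of 23 polarity and Wnt genes. Over all genes tested, 4.7% were higher and 5.22% lower without overlap. Of 36 partners of focal adhesion kinase 34 were tested, 22 with higher and 12 with lower mean log2 values in knockout, and 0 passed 0.1 by limma-trend (0% of all genes); the median log2 difference was 0.11, against 0.01 over all genes. Bcar1, the Cas adaptor that Src and focal adhesion kinase phosphorylate, had 830, 893 and 862 normalized counts in wild type pools and 888, 1049, 1139 and 1063 in knockout. Only knockout replicate 1 lay within the wild type range (log2 difference 0.26, SE 0.10, limma-trend adjusted p = 0.457). Parva, a parvin that ties integrin-linked kinase to actin, had 1456, 2002 and 2040 in wild type pools and 2471, 2141, 2225 and 2368 in knockout, with no overlap (0.34, SE 0.12, limma-trend adjusted p = 0.441).

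Of 19 regulators of the Src family 18 were tested, 9 with higher and 9 with lower values, and 0 passed (median log2 difference 0.02). Cbl, a ubiquitin ligase that marks active tyrosine kinases for breakdown, had 369, 352 and 429 normalized counts in wild type pools and 307, 273, 336 and 238 in knockout. Each knockout library was below each wild type library (log2 difference -0.42, SE 0.15, limma-trend adjusted p = 0.448). Pag1, a membrane protein that anchors Csk near its substrates, was weakly expressed, with 36.6, 29.2 and 28.1 in wild type pools and 97.0, 53.9, 44.2 and 53.4 in knockout. Its knockout libraries were all higher (log2 difference 0.91, SE 0.35, limma-trend adjusted p = 0.465). Of 10 related kinases 7 were tested, 5 higher and 2 lower, with a median of 0.35. Ptk2b, the relative of focal adhesion kinase in neurons and blood cells, had 9.39 ± 6.16 and 25.8 ± 12.7 normalized counts and overlapped (1.34, SE 0.71). Abl2, a kinase that acts on actin at cell edges, had 237 ± 38.0 and 193 ± 12.7, with knockout libraries all lower (-0.29, SE 0.17).

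All 15 listed substrates of the Src family were tested, and 9 were higher and 6 lower in knockout (median log2 difference 0.21; 0 passed). Afap1, a scaffold that binds Src and actin filaments, had 525, 437 and 461 normalized counts in wild type pools and 481, 575, 850 and 698 in knockout. Replicate 1 of the knockout lay within the wild type range (0.43, SE 0.18, limma-trend adjusted p = 0.479). Cav1, the coat protein of caveolae, which endothelium makes in abundance, had 282, 215 and 241 in wild type pools and 401, 634, 292 and 285 in knockout (0.64, SE 0.27, limma-trend adjusted p = 0.479). Its knockout libraries were all higher, and replicate 2, the highest, also had the most Pecam1, the endothelial adhesion molecule, with 319.9 normalized counts; the endothelial part in Cav1 was not tested.

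Planar cell polarity, the process in which Ptk7 acts, was covered by 23 genes together with Wnt co-receptors, all tested: 15 were higher and 8 lower (median 0.09), and 0 passed by limma-trend. Fzd6, the frizzled receptor of this pathway in skin and hair follicles, had 655, 715 and 753 normalized counts in wild type pools and 343, 347, 496 and 433 in knockout. Each knockout library was below each wild type library by a wide gap, a log2 difference of -0.82 (SE 0.15; 95% interval -1.15 to -0.49), with an adjusted p of 0.244 by limma-trend, 0.286 by edgeR and 0.00114 by DESeq2. The authors' deposited table lists it with an adjusted p of 0.000398. Celsr1, the atypical cadherin that partners with frizzled receptors, had 762, 753 and 813 in wild type pools and 459, 347, 697.5 and 562 in knockout, again with no overlap (-0.63, SE 0.20, limma-trend adjusted p = 0.435). Both were lowest in knockout replicates 1 and 2, the libraries with the lowest sums of ectoderm markers, at 22144 and 24198; knockout replicate 3 had an ectoderm sum of 36332, with Fzd6 at 496 and Celsr1 at 697.5. The ectoderm's part was not tested.

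**Figure D5:**
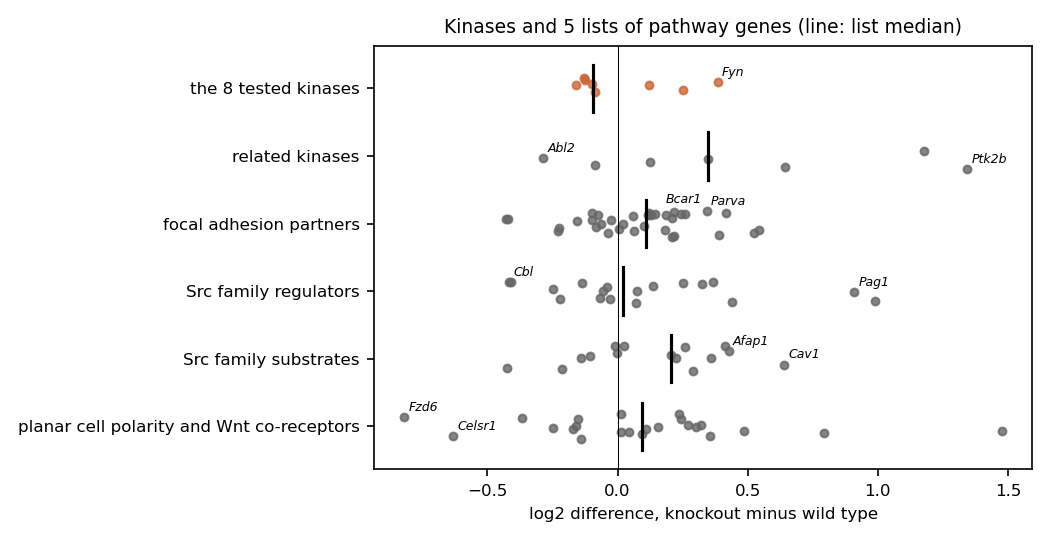
Log2 difference, knockout minus wild type (x axis), of the 8 tested kinases (orange) and of the tested genes of 5 pathway lists (grey); the black line is the median of each row, and the vertical spread within a row has no meaning. The kinase median is -0.09, and Fzd6 at -0.82 and Ptk2b at 1.34 lie far out in their rows.

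The libraries held 8903523 to 12504790 recovered reads, and correlations of log2 values between libraries were between 0.894 and 0.961. Each of the 8 kinases had between 73 and 1741 reads in a library. All 12 ectoderm markers were detected, Krt5 among them at 7221 ± 994 normalized counts in wild type pools and 5801 ± 1336 in knockout; the submitters had used it to judge libraries and had left out wild type replicate 1, which was not analysed here. Within the libraries over 10000000 reads, 2 of each genotype, Fyn had a log2 difference of 0.28, and within the other 3 libraries, 1 of them wild type, it had 0.53. The same differences were -0.29 and 0.02 for Src, 0.25 and 0.31 for Frk, and 0.01 and 0.34 for Ptk2.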

How the data were processed

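The submitters' processing notes name TopHat2 2.0.9, HTSeq, DESeq2 and the build GRCm38; per the series' design text, HTSeq counted in intersection-strict mode. The authors deposited a signal column of normalized counts per library, a log2 column with their DESeq2 fold change of knockout over wild type, and a p-value column each for raw and adjusted p. The smallest value above 0 in a library was taken as 1 read; 100% of values then were whole within 0.01 read.

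The main test was limma-trend 3.58.1 with robust moderation (R 4.3.3) on log2(normalized count + 1). It covered 15029 genes whose mean was 10 or more, adjusted by Benjamini-Hochberg over all of them, threshold 0.1. Fold changes on this scale understate changes of weakly expressed genes. edgeR 4.0.16 and DESeq2 1.42.0 were run on recovered reads. The limma-trend procedure was also run on simulated counts. These lacked differences in cell makeup between pools, so they cannot show how the test performs on these libraries. Longest transcripts, exons and 3′ UTRs came from GENCODE M21. Other alternatives were another pseudocount, other filters, TMM scaling, depth as a covariate, a block and subsets of libraries; the block's libraries without the block and the exonic length were added after seeing the data. Members and lists were chosen with earlier results of these data known. Named were all members, called pathway genes or else the 2 with the smallest p per list, the most similar gene per member, and Ptprc, Pecam1, Krt5 and Tubb3. Tubb3, the neuronal tubulin, had 1250 ± 1225 normalized counts in wild type pools (SD, n = 3) and 3493 ± 1532 in knockout pools (SD, n = 4).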

Additional observations from a re-analysis of the deposited data

Results flagged for a closer look

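In the knockout group of 4, a library stood apart from the other 3 by Dixon's criterion for Src, Fyn and Abl2 among the 18 genes examined; chance gives this in about 1 of 20 groups. Src had 847 normalized counts in knockout replicate 1 and 662 to 670 in the others. Fyn had 1273 in knockout replicate 2 and 1064 to 1093 in the others; without that library its log2 difference was 0.32. Abl2 had 174 in knockout replicate 1 and 198 to 200.4 in the others.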

How the results depend on the processing

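The count of genes past 0.1, which was 0 by limma-trend, was 2 with more than 10 normalized counts required in each library, 223 by DESeq2 (110 higher), 3 without knockout replicates 1 and 2, 38 within the libraries over 10000000 reads, 8 within the others, and 0 to 84 when each library was left out in turn, the 84 without wild type replicate 2. The kinases past 0.1 were 0 in each setting but DESeq2, which called 1 (Fyn), and the pathway genes 0 but for 1 by DESeq2 (Fzd6). Deviations of same-numbered libraries from their group means had correlations of 0.10, 0.11 and -0.01. Pairs with different numbers ran from -0.21 to 0.16. So few correlations cannot decide whether same-numbered libraries share more than a number, and the labels do not say. With the replicate block over replicates 2 to 4 the count of genes past 0.1 was 3, and without it 2, in the same libraries. Of 152 differences recomputed for the 8 kinases, 144 kept direction and side of the threshold, and 1 (Fyn, DESeq2) came to pass it. The direction turned in 7: within the libraries under 10000000 reads for Src (0.0236), Yes1 (0.106), Lyn (0.168) and Csk (0.0615), without wild type or knockout replicate 3 for Yes1 (0.0271 and 0.0032), and without knockout replicate 3 for Lyn (0.0371). Leaving out each library in turn gave -0.154 to 0.0271 for Yes1 and -0.291 to 0.0371 for Lyn. The cause was not tested. With depth as a covariate the difference of Lyn was -0.14. Lyn, with 73 to 117 reads per library, had coefficients of variation of 10.6% in wild type and 31.8% in knockout.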
